A study of Mus musculus with 6 samples.

Results

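The WNT ligands, their receptors and their modulators were followed in mouse granulosa cells as a set of 53 protein-coding genes, out of 49315 genes in each count file. Members were taken by symbol: 19 Wnt ligands, 10 Frizzled receptors, the 2 LRP co-receptors Lrp5 and Lrp6, 4 secreted frizzled-related proteins, 4 Dickkopf proteins, 4 R-spondins, the 3 R-spondin receptors Lgr4, Lgr5 and Lgr6, 2 axins, and beta-catenin (Ctnnb1) with the 4 TCF/LEF factors. Granulosa cells are the somatic cells that surround the oocyte in ovarian follicles. RNA of freshly isolated cells was sequenced in 3 knockout (KO) libraries, from mice that lack Jmjd3 (also named Kdm6b) in granulosa cells only, and in 3 wild-type (WT) libraries. All were labelled C57BL/6J, aged 8-9 weeks, with no treatment named for either group. The JMJD3 protein erases H3K27 methylation, a histone mark of silenced genes. The sources used here do not name the Cre driver, the deleted exons, hormone treatment, cycle stage or any pooling of animals. Nor do they state whether each replicate was a separate animal, so a p-value covers only the spread among libraries, part of which may be technical.

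WNT proteins are secreted lipid-modified ligands that bind Frizzled receptors together with the co-receptors LRP5 or LRP6. Without a ligand, a complex built on axin marks beta-catenin for destruction, and with one, beta-catenin accumulates and acts with TCF/LEF factors on target genes. R-spondins bind LGR receptors and keep Frizzled proteins at the cell surface, while secreted frizzled-related proteins bind the ligands and DKK1 blocks the co-receptors. In the mouse, Wnt4 and Rspo1 are required for the ovary to form, and Frizzled4 is required for female fertility.

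Counts per library summed to between 42379018 and 49471453 in KO and between 47562679 and 49901493 in WT. Levels are normalised read counts (CPM, scaled to library size), and 1 CPM stands for 42.5 to 51.4 counts. Kdm6b stood at 64.7, 68.6 and 112 CPM in KO replicates 1 to 3, against 72.8, 66.3 and 66.2 CPM in WT replicates 1 to 3, so whole-gene counts do not show the deletion and the genotypes rest on the labels. KO replicate 3 stood apart: without it, Kdm6b had a log2 fold change of -0.04, against 0.26 with all libraries. The 12 granulosa cell markers, which include Fshr, Foxl2 and Amh, were detected in every library and summed to between 16340 and 22780 CPM in KO and between 14590 and 16560 CPM in WT. EdgeR called 2 of the 12 lower in KO (adjusted p under 0.05), against 0.0932% of all genes tested, and 0 higher, against 0.126%. Of the 12, 8 had a positive log2 fold change and 4 a negative one. No marker on the lists of other cell types (theca, luteal, epithelial, stromal, muscle, endothelial, immune, oocyte and red blood cells) was at 0 in a library. In such bulk samples, fewer cells of a type and less RNA per cell cannot be told apart.

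Promoters of members are shown because JMJD3 acts on a histone mark found at CpG-rich promoters and no chromatin was measured here. RefSeq (GRCm38.p6) gave 44 windows of the 250 bases before a transcript start, for 35 of the 53 members. Their median GC content was 67.4%, against 52.4% over all 32851 windows, and their median number of CpG dinucleotides was 22, against 6. The windows of the 27 members with enough counts for a test had a median of 21 CpG, and those of 8 members without had 22. Of the 9 tested members whose KO and WT libraries did not overlap, Fzd2, Fzd8 and Wnt10a had no window. The windows of the others held 25 CpG (Fzd4), 32 (Fzd5), 36 (Wnt2b), 22 (Rspo1), 6 (Dkk1) and 5, 6, 11 and 14 (Lef1). Shown first are 3 members whose KO and WT libraries did not overlap, the receptors Fzd4 (chr7:89404116-89404354, plus strand) and Fzd5 (chr1:64737752-64738000, minus strand) and the R-spondin gene Rspo1 (chr4:124986180-124986429, plus strand). Bases of these 3 inside the gene as the count files delimit it are left out, each sequence runs 5′ to 3′, and capitals mark CpG, of which there are 24, 31 and 22.
Fzd4: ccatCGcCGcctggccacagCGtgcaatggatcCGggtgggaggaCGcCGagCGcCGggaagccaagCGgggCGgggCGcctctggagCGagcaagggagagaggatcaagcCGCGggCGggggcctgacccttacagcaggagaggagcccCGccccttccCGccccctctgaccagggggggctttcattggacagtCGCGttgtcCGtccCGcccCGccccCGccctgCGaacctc
Fzd5: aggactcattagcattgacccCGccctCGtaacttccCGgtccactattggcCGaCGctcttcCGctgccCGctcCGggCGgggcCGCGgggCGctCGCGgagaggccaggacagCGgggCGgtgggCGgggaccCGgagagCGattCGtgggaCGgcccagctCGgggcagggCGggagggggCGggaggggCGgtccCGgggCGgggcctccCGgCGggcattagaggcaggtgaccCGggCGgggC
Rspo1: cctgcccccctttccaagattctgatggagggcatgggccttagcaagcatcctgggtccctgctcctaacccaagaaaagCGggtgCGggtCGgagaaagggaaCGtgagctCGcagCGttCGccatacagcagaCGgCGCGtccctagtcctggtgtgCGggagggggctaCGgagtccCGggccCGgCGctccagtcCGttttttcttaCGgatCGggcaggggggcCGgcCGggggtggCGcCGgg

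The letters by which TCF/LEF factors are known to bind were searched on both strands as CTTTG followed by AA, AT, TA or TT. At least 1 match stood in 6 of the 44 windows (13.6%), against 14.8% of all windows. The 6 windows belonged to Dkk1, Fzd7, Lef1, Tcf7l2, Wnt11 and Wnt5b. Dkk1, a WNT target in other tissues, had 2 matches, at 117 to 111 and at 98 to 92 bases before its RefSeq start. The stretch that holds both (chr19:30549588-30549613, minus strand) is shown with the matches in capitals. It lies inside Dkk1 as the count files delimit the gene, whose end is 30549665.
Dkk1: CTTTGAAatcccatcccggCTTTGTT

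Of the 53 members, 43 had enough counts to be tested and 10 did not. The 10 were Wnt1, Wnt3, Wnt3a, Wnt8a, Wnt8b, Wnt9b, Wnt16, Sfrp5, Dkk4 and Rspo4, none of which had more than 10 counts in a library. Several of them had libraries at 0 counts, which allows a level of up to 0.064, 0.0706 and 0.0623 CPM in KO replicates 1 to 3 and of up to 0.0584, 0.063 and 0.0595 CPM in WT replicates 1 to 3 (3 counts; counting error only). Among the 43, the fit over all genes called 1 member, the receptor gene Fzd2, which was higher in KO, and 0 lower (edgeR quasi-likelihood test, Benjamini-Hochberg adjusted p under 0.05). The same fit called 40 of 18250 genes (0.219%), 23 of them higher (0.126%) and 17 lower (0.0932%). DESeq2 called 3 members, Fzd2, Fzd4 and Fzd8, all higher, against 1.24% of the genes it tested (0.710% higher, 0.526% lower). Limma-voom called Fzd2 alone, against 0.395% of genes (0.203% higher, 0.192% lower).

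Before adjustment, 11 of the 43 (25.6%) had a p under 0.05 in edgeR, against 9.16% of all genes tested. Of the 11, 4 were higher in KO and all of them were Frizzled receptors (Fzd2, Fzd4, Fzd5 and Fzd8). The other 7 were lower in KO: the ligands Wnt2b, Wnt7a, Wnt9a and Wnt10a, with Rspo1, Dkk1 and Lef1. The KO and WT libraries did not overlap for 9 of the 43 (20.9%), against 15.6% of all genes, with KO above WT for the 4 Frizzled receptors (9.3%, against 7.68%) and KO below WT for Wnt2b, Wnt10a, Rspo1, Dkk1 and Lef1 (11.6%, against 7.89%). The median log2 fold change, KO minus WT, was -0.02 over the 43 members and 0.00 over all genes, and the members ranged from -1.20 to 0.73.

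**Figure D1:**
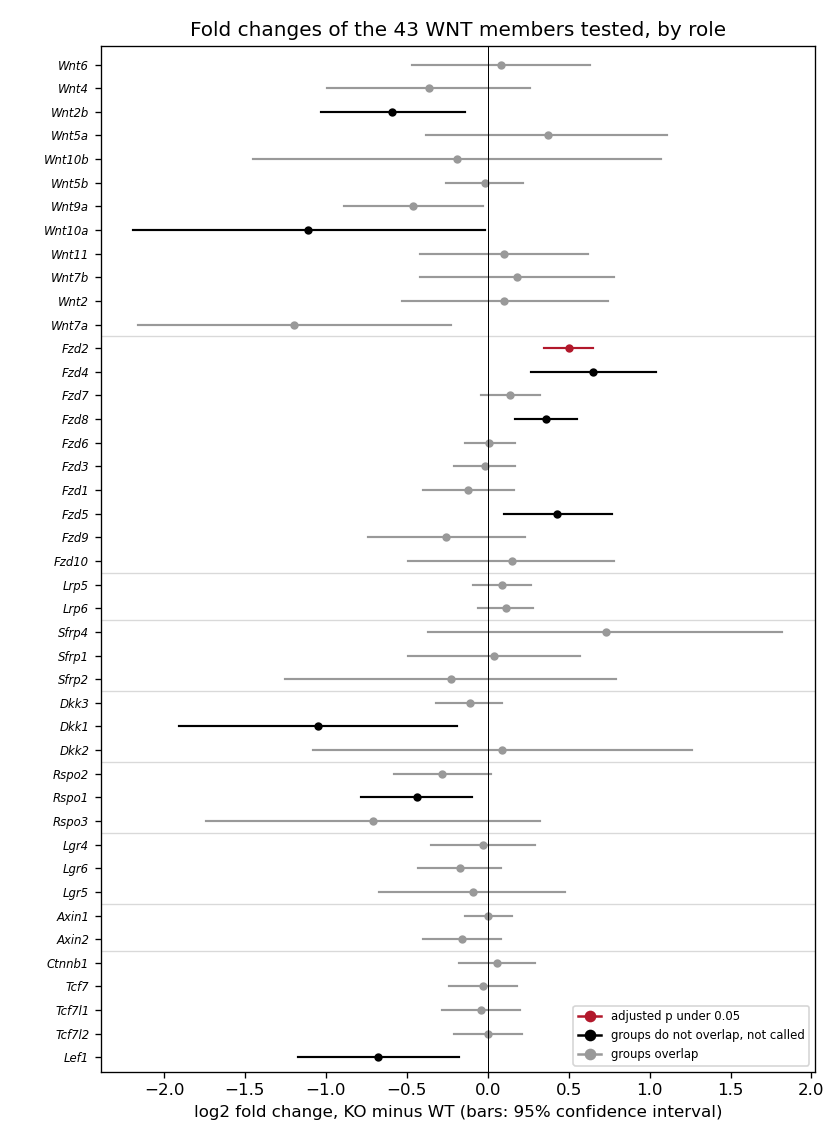
Log2 fold change (KO minus WT, horizontal axis) of the 43 tested members, grouped by role, with 95% confidence intervals as bars. Fzd2 (red) is the member called by edgeR at 0.50, and black marks the 8 other members whose KO and WT libraries did not overlap, 3 Frizzled receptors to the right of 0 and 5 members to the left.

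Levels per kilobase of exon, which allow genes to be compared, spanned the set widely. Sfrp4 had the highest level, 495 ± 243 CPM per kilobase in KO and 299 ± 73.2 in WT (SD, n = 3 each). Ctnnb1 came next, with 188 ± 20.1 in KO and 181 ± 10.3 in WT, and its libraries lay below every library of Sfrp4. The following members had close levels: Lgr4 averaged 27.1 CPM per kilobase over all 6 libraries, Wnt6 26.5, Tcf7 26.2 and Wnt4 24.5, and their ranges over libraries overlapped. Fzd2 had a level of 13.5 ± 0.516 CPM per kilobase in KO and 9.57 ± 0.200 in WT.

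**Figure D2:**
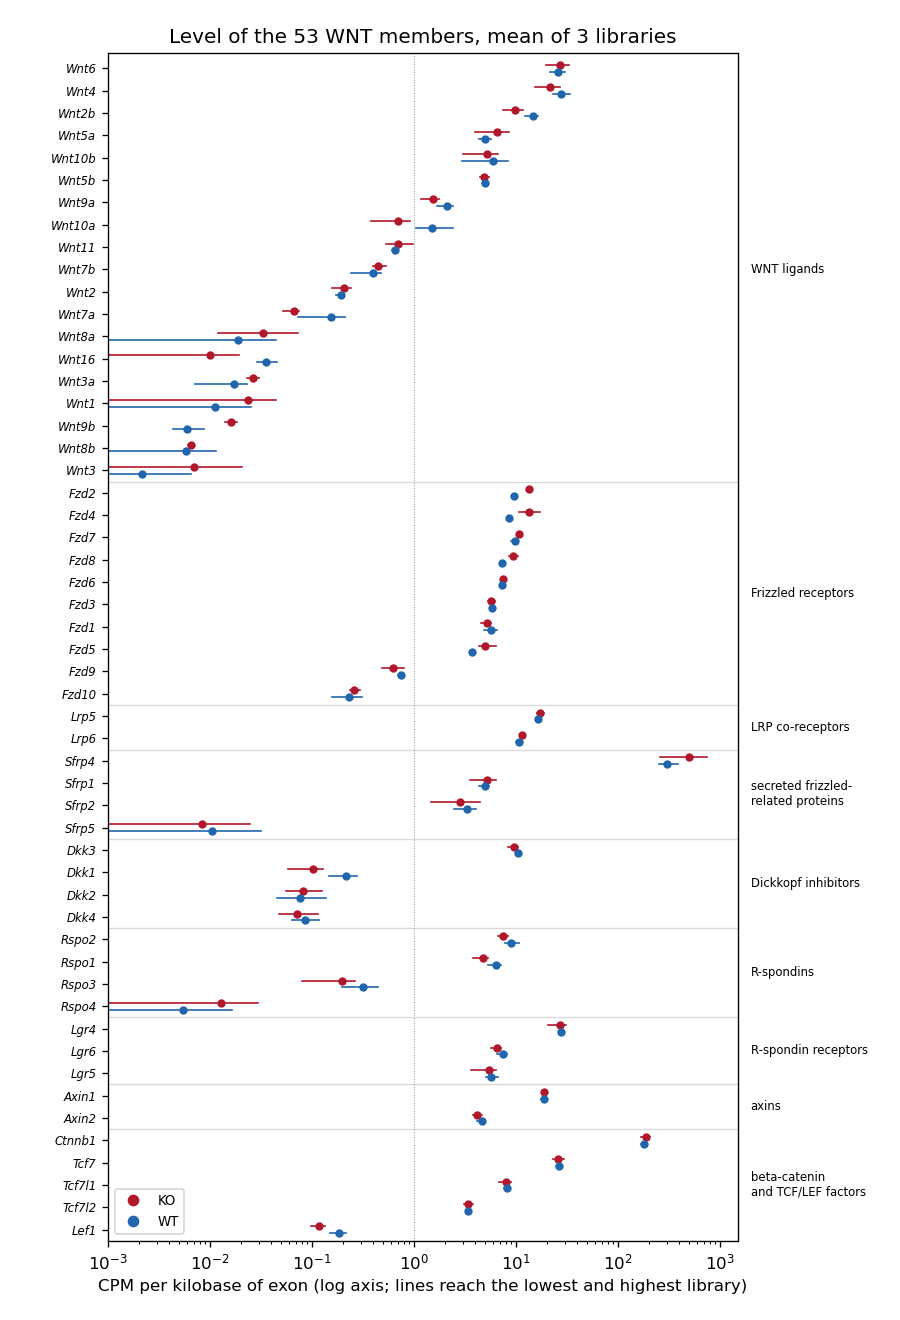
Level of each of the 53 members in CPM per kilobase of exon (log axis), as the mean of the 3 KO libraries (red, upper) and the 3 WT libraries (blue, lower), with lines from the lowest to the highest library. Lines that reach the left edge have a library at 0, and Sfrp4 and Ctnnb1 stand to the right of all other members.

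Among the ligands, Wnt6 and Wnt4 had the highest levels, and none of the 12 tested was called. WNT4 is the ligand needed in the mouse for ovarian development and follicle maintenance, and WNT6 is a related ligand. Wnt4 stood at 113, 92.3 and 63.9 CPM in KO, against 108, 96.3 and 142 CPM in WT, a log2 fold change of -0.36 ± 0.25 (SE; edgeR adjusted p = 0.703). Its groups overlapped, with KO replicate 3 lowest and WT replicate 3 highest. Wnt6 stood at 72.4, 64.0 and 42.7 CPM in KO, against 47.1, 55.6 and 66.4 CPM in WT, and its groups overlapped too (log2 fold change 0.08 ± 0.22 SE; edgeR adjusted p = 0.935). Per kilobase, Wnt6 made up 34.6% of the summed ligand level in KO and 28.9% in WT, and Wnt4 27.2% in KO and 31.0% in WT.

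Wnt2b, which encodes a ligand of the beta-catenin pathway, had 43.2, 49.0 and 31.3 CPM in KO, against 51.0, 65.5 and 68.7 CPM in WT. Every KO library lay below every WT library, at a log2 fold change (-0.59 ± 0.19 SE; 95% confidence interval -1.03 to -0.14) that did not pass the test (edgeR adjusted p = 0.437). Wnt10a had 2.24, 1.98 and 0.935 CPM in KO, against 2.57, 2.60 and 5.91 CPM in WT (log2 fold change -1.11 ± 0.45 SE; edgeR adjusted p = 0.541). WT replicate 3 stood apart for Wnt10a, and without it the log2 fold change was -0.59. Wnt7a rested on 7 to 11 counts in KO and 11 to 34 in WT (0.235, 0.165 and 0.228 CPM in KO, against 0.662, 0.231 and 0.555 CPM in WT). Its log2 fold change of -1.20 ± 0.43 (SE) had an edgeR adjusted p of 0.445, and KO replicate 1 lay above WT replicate 2. The other 7 tested ligands (Wnt2, Wnt5a, Wnt5b, Wnt7b, Wnt9a, Wnt10b and Wnt11) overlapped between groups and had log2 fold changes between -0.46 (Wnt9a) and 0.37 (Wnt5a). Over the 12 the median was -0.11.

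Fzd2 encodes a seven-pass receptor known for binding WNT5A as well as ligands of the beta-catenin pathway. The gene lies on chromosome 11 (chr11:102604396-102608058, plus strand, GRCm38), and no exon base of it is shared with another annotated gene. The targeted gene Kdm6b lies on the same chromosome (chr11:69398508-69413675), as do 7 of the members, Fzd2 among them. The part of this position in the value of Fzd2 was not tested. Fzd2 had 51.7, 48.1 and 48.8 CPM in KO, against 34.7, 34.6 and 35.9 CPM in WT, or 2044 to 2424 counts in KO and 1649 to 1811 in WT. The groups did not overlap, and the 3 libraries of each group lay close together. Fzd2 rose in KO by 0.50 ± 0.07 on the log2 scale (SE; 95% confidence interval 0.35 to 0.65), with an adjusted p of 0.0247 in edgeR. The adjusted p was 1.4e-06 in DESeq2 and 0.0114 in limma-voom. With 1 library left out, the log2 fold change stayed between 0.46 and 0.52. However, edgeR's adjusted p passed the threshold without KO replicate 3 (0.00138, in a fit that called 1.74% of genes higher) and in no other case. It was 0.0634 and 0.0735 without KO replicate 1 or 2, and 0.153, 0.175 and 0.178 without WT replicate 1, 2 or 3.

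Fzd4 encodes the receptor that is required in the mouse for a normal corpus luteum, the gland a follicle becomes after ovulation. It had 81.0, 72.5 and 114 CPM in KO, against 56.2, 54.9 and 59.1 CPM in WT. All KO libraries lay above all WT libraries, with KO replicate 3 far above the others, and the log2 fold change was 0.65 ± 0.16 (SE; edgeR adjusted p = 0.307, DESeq2 adjusted p = 0.00672). Without KO replicate 3 it was 0.44, and edgeR then called it (adjusted p = 0.00467, in a fit that called 2.26% of genes, 1.74% higher and 0.521% lower). With 1 library left out, its adjusted p ranged from 0.00467 to 0.704.

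Fzd8 had 29.7, 28.9 and 34.6 CPM in KO, against 24.2, 24.3 and 24.0 CPM in WT (log2 fold change 0.36 ± 0.09 SE; edgeR adjusted p = 0.225, DESeq2 adjusted p = 0.049). Fzd5 had 29.8, 30.4 and 43.9 CPM in KO, against 24.9, 25.5 and 26.7 CPM in WT (log2 fold change 0.43 ± 0.15 SE; edgeR adjusted p = 0.437). Both encode Frizzled receptors of the same subfamily, and for both every KO library lay above every WT library, with KO replicate 3 highest. The value of Fzd5 is uncertain, since 1233 of its exon bases are shared with Gm38058 on the opposite strand and no source used here states the strand setting of the counting. The other 6 receptors overlapped between groups and had log2 fold changes between -0.26 (Fzd9) and 0.15 (Fzd10). Fzd9 and Fzd10 were the lowest in level, at means of 1.42 and 0.833 CPM in KO and 1.69 and 0.756 CPM in WT. Over the 10 receptors the median was 0.15.

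Summed levels of marker lists differed beside these receptors. The 7 red blood cell markers summed to between 830 and 2260 CPM in KO and between 383 and 798 CPM in WT, with no overlap. Singly, KO lay above WT for all 7 (100%, against 7.68% of all genes), at a median log2 fold change of 1.25. An unadjusted edgeR p under 0.05 was found for 3 of them (42.9%, against 9.16%), and edgeR called 1 higher, against 0.126% of all genes. The 8 theca and interstitial markers summed to between 1035 and 1460 CPM in KO and between 672 and 898 CPM in WT, but 5 of the 8 had a negative log2 fold change (median -0.07) and the sum was carried by Fdx1 and Cyp17a1. The 8 luteal markers, among them the steroidogenic genes Star and Cyp11a1, summed to 19480, 13980 and 10950 CPM in KO, against 11250, 9113 and 10230 CPM in WT. These sums overlapped between groups, while all 8 markers had a positive log2 fold change (median 0.61). Of the 8, 6 (75%, against 9.16% of all genes) had an unadjusted edgeR p under 0.05, and edgeR called none. The part of these cell types in the Frizzled values was not tested. KO replicate 3, which was highest for Fzd4, Fzd5 and Fzd8, had 1066 CPM summed over 10 ovulation genes such as Areg and Ptgs2, against 152 and 327 CPM in the other KO libraries and 146 to 345 CPM in WT. For Fzd2, KO replicate 3 lay between the other KO libraries.

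**Figure D3:**
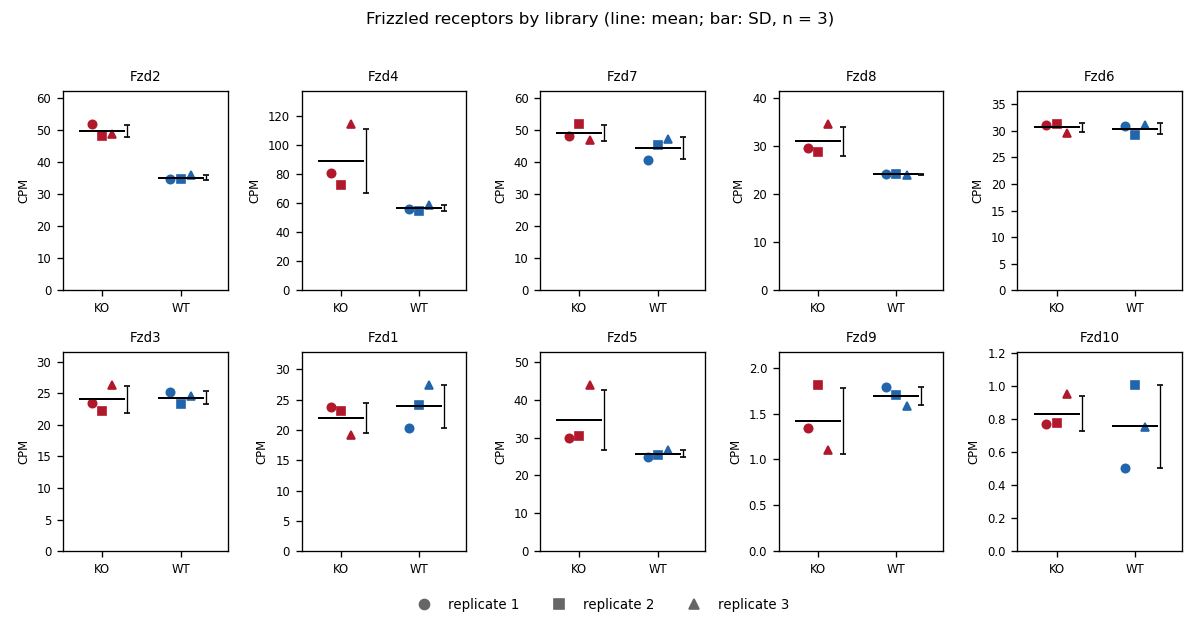
Level in CPM of the 10 Frizzled receptors in each of the 3 KO (left, red) and 3 WT (right, blue) libraries, with the mean as a line and the SD as a bar. KO and WT do not overlap for Fzd2, Fzd4, Fzd8 and Fzd5, and KO replicate 3 (triangle) is the highest library for the last 3 of these.

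The co-receptor genes were even across libraries. Lrp5 had 155, 168 and 184 CPM in KO, against 153, 163 and 160 CPM in WT, and Lrp6 had 149, 163 and 160 CPM in KO, against 136, 152 and 150 CPM in WT. The groups overlapped for both. Their log2 fold changes were 0.09 (95% confidence interval -0.09 to 0.27) and 0.11 (-0.06 to 0.28), with edgeR adjusted p of 0.755 and 0.68.

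Of the secreted frizzled-related proteins, which bind WNT ligands outside the cell, Sfrp4 made up 98.4% of the summed level per kilobase in KO and 97.3% in WT. Sfrp4 is known in rodents as a gene of periovulatory granulosa and luteal cells. It had 1303, 855 and 451 CPM in KO, against 673, 443 and 458 CPM in WT. KO replicates 1 and 2 lay above all WT libraries, while KO replicate 3 lay within the WT range. The log2 fold change, 0.73 ± 0.43 (SE; 95% confidence interval -0.37 to 1.82), did not pass the test (edgeR adjusted p = 0.663). Among the KO libraries, replicate 1 was likewise highest and replicate 3 lowest for the summed luteal, epithelial, stromal and smooth muscle markers. The same order held for the endothelial, immune and red blood cell markers, but not for those of theca, oocytes or granulosa cells. The ovulation genes ran in the opposite order, with summed levels of 152, 327 and 1066 CPM in KO replicates 1 to 3. The part of these cell types in the value of Sfrp4 was not tested. Sfrp1 had 27.9, 24.4 and 15.4 CPM in KO, against 19.0, 23.6 and 23.2 CPM in WT, and Sfrp2 had 3.13, 5.65 and 9.55 CPM in KO, against 7.45, 8.71 and 5.33 CPM in WT. Both spanned a wider range in KO than in WT, and KO replicate 3 was the lowest library for Sfrp1 and the highest for Sfrp2.

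**Figure D4:**
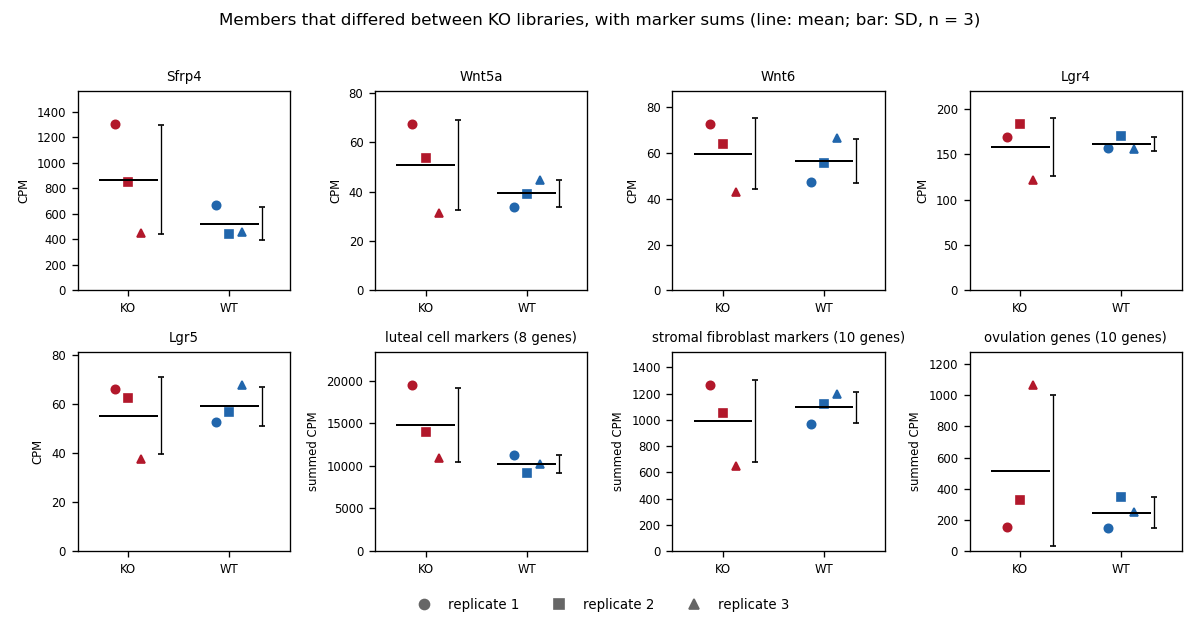
Levels in CPM of 5 members, chosen after their values were seen because the KO libraries lay far apart, and summed CPM of 3 marker lists, in the 3 KO (left, red) and 3 WT (right, blue) libraries with mean and SD. KO replicate 3 (triangle) is the lowest KO library for Sfrp4 (451 CPM), Wnt5a, Wnt6, Lgr4 and Lgr5 and for the luteal and stromal lists, and the highest for the ovulation genes (1066 CPM).

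The Dickkopf inhibitor DKK1 acts by binding LRP5 and LRP6. Dkk1 had few reads, with 6 to 15 counts in KO and 17 to 34 in WT. It had 0.299, 0.141 and 0.312 CPM in KO, against 0.545, 0.357 and 0.674 CPM in WT, with no overlap (log2 fold change -1.05 ± 0.38 SE; 95% confidence interval -1.91 to -0.19; edgeR adjusted p = 0.446). Dkk3, a divergent member of the family that does not act as a plain WNT inhibitor, had 33.9, 34.9 and 28.04 CPM in KO, against 33.7, 35.1 and 35.9 CPM in WT. Its groups overlapped (log2 fold change -0.11 ± 0.09 SE; edgeR adjusted p = 0.732). Dkk2 had a mean of 0.304 CPM in KO and 0.284 CPM in WT.

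R-spondins strengthen WNT signals through LGR receptors, and all 3 that were tested had negative log2 fold changes (median -0.44), none of which was called. Rspo1 had 9.56, 10.3 and 7.41 CPM in KO, against 10.4, 12.8 and 13.8 CPM in WT. Every KO library lay below every WT library, with KO replicate 2 close to WT replicate 1 (log2 fold change -0.44 ± 0.15 SE; edgeR adjusted p = 0.432). Rspo2, which the mouse oocyte is known to express, had 22.2, 24.2 and 27.5 CPM in KO, against 25.6, 28.4 and 35.8 CPM in WT, with overlap (log2 fold change -0.28 ± 0.13 SE; edgeR adjusted p = 0.577). The 12 oocyte markers summed to 616, 591 and 647 CPM in KO, against 716, 701 and 907 CPM in WT. The sums did not overlap, while 6 of the 12 markers (50%, against 15.6% of all genes) did not overlap singly. KO lay below WT for 5 of them (41.7%, against 7.89%) and above WT for 1 (8.33%, against 7.68%). An unadjusted edgeR p under 0.05 was found for 9 of the 12 (75%, against 9.16%), 8 lower in KO and 1 higher, and none was called. Of the 12, 11 had a negative log2 fold change, and their part in the value of Rspo2 was not tested. Rspo3 had a mean of 0.604 CPM in KO and 0.986 CPM in WT and overlapped between groups.

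Wnt2b, Rspo1, Wnt10a and Lef1 had KO replicate 3 as their lowest and WT replicate 3 as their highest library. The 12 markers of ovarian surface and oviduct epithelium summed to 658, 604 and 463 CPM in KO, against 613, 793 and 760 CPM in WT. The list overlapped between groups and was highest in WT replicate 2. Of its 12 genes, 11 had a negative log2 fold change, and 2 (16.7%, against 9.16% of all genes) had an unadjusted edgeR p under 0.05. KO replicate 3 was also lowest of all libraries for the summed stromal (649 CPM) and smooth muscle markers (219 CPM). The same held for the endothelial (146 CPM) and immune markers (108 CPM), but not for the luteal, red blood cell, oocyte, theca, granulosa or ovulation lists. The part of these lists in the values of Wnt2b, Rspo1, Wnt10a and Lef1 was not tested. Over all 43 tested members, KO replicate 3 was the lowest of the 6 libraries for 18 (41.9%, against 21.7% of all genes) and the highest for 11 (25.6%, against 21.8%). WT replicate 3 was the highest for 13 (30.2%, against 14.9%). Without KO replicate 3, the log2 fold changes of Wnt2b and Rspo1 were -0.42 and -0.31, with edgeR adjusted p of 0.148 and 0.252, the lowest over the fits that left out 1 library (highest 0.74 and 0.758).

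**Figure D5:**
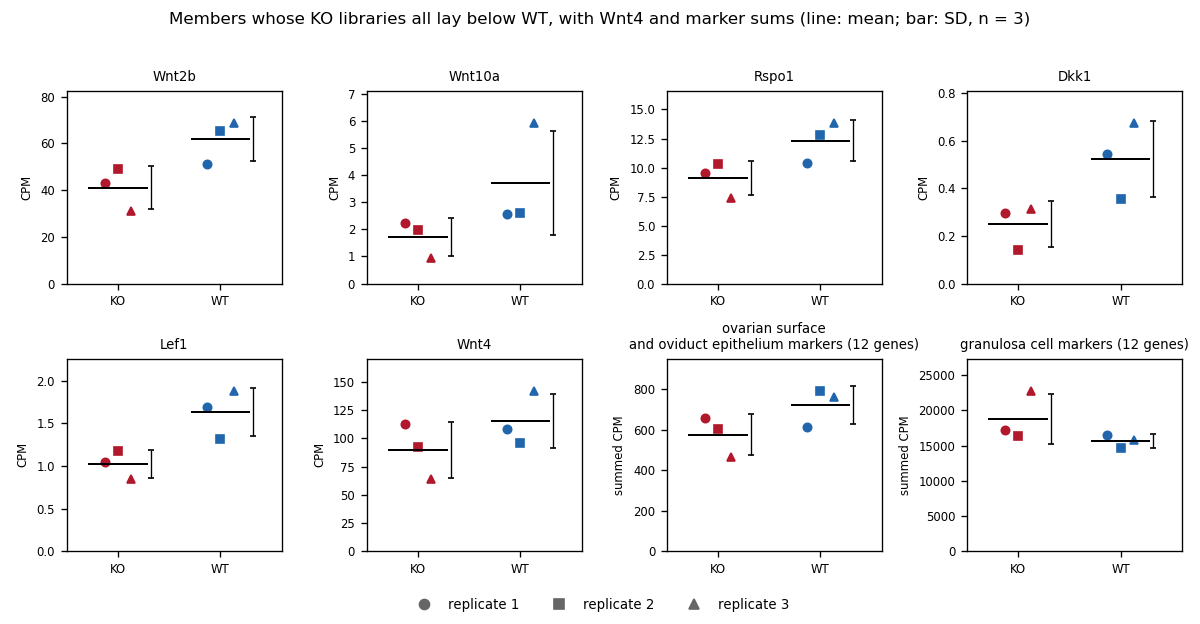
Levels in CPM of the 5 tested members whose KO libraries (left, red) all lay below the WT libraries (right, blue), with Wnt4 and the summed CPM of 2 marker lists, and with mean and SD. KO replicate 3 (triangle) is the lowest library for Wnt2b, Wnt10a, Rspo1, Lef1, Wnt4 and the epithelial list (463 CPM), and it is the highest for the granulosa cell list (22780 CPM).

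The 3 R-spondin receptors overlapped between groups, with log2 fold changes between -0.17 and -0.03. Lgr4, the most highly expressed of them per kilobase, had 169, 183 and 122 CPM in KO, against 157, 170 and 156 CPM in WT. Lgr5, known in the mouse as a marker of the ovarian surface epithelium, had 66.0, 62.3 and 37.3 CPM in KO, against 52.4, 56.6 and 67.6 CPM in WT. KO replicate 3 was lowest for both, and their log2 fold changes, -0.03 and -0.09, turned to 0.13 and 0.12 without it. Lgr6 had 38.9, 48.8 and 47.5 CPM in KO, against 44.6, 56.3 and 51.7 CPM in WT (log2 fold change -0.17 ± 0.11 SE; edgeR adjusted p = 0.668).

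Inside the cell, Axin1, the scaffold of the destruction complex, had 71.0, 70.8 and 73.4 CPM in KO, against 74.8, 72.7 and 67.7 CPM in WT. Its log2 fold change of 0.00 had a 95% confidence interval of -0.14 to 0.15. Axin2, the related scaffold that many tissues switch on in response to WNT, had 21.03, 25.7 and 21.2 CPM in KO, against 22.6, 26.0 and 27.5 CPM in WT. Its groups overlapped (log2 fold change -0.16 ± 0.11 SE; 95% confidence interval -0.40 to 0.08; edgeR adjusted p = 0.671).

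Ctnnb1, which encodes beta-catenin, had 998, 1071 and 866 CPM in KO, against 879, 968 and 975 CPM in WT, with overlap (log2 fold change 0.06; 95% confidence interval -0.18 to 0.29; edgeR adjusted p = 0.896). Its exons share 759 bases with Ulk4 on the opposite strand, which leaves its count uncertain. The same limit holds, with fewer bases shared, for Wnt5a (358), Wnt7b (324), Wnt11 (364), Sfrp2 (347), Rspo3 (404), Axin2 (209) and Tcf7l1 (179). Tcf7, the TCF/LEF factor with the highest level per kilobase, had 61.0, 66.7 and 77.0 CPM in KO, against 72.2, 72.1 and 64.2 CPM in WT. Its groups overlapped as well, as did those of Tcf7l1 and Tcf7l2 (log2 fold changes -0.03, -0.04 and 0.00). Lef1, the fourth factor and a WNT target itself in other tissues, was expressed at a low level. It had 1.05, 1.18 and 0.851 CPM in KO, against 1.69, 1.32 and 1.88 CPM in WT, or 41 to 50 counts in KO and 63 to 95 in WT. The groups did not overlap, and the difference (log2 fold change -0.68 ± 0.22 SE; 95% confidence interval -1.17 to -0.18) was not called (edgeR adjusted p = 0.396). Lef1 shares 1208 exon bases with the antisense gene Gm43352, so its value is uncertain too.

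Other genes of the pathway were taken from a list of 75, of which 71 were tested. EdgeR called 0 of them, and 5 (7.04%, against 9.16% of all genes) had an unadjusted p under 0.05, 2 higher in KO and 3 lower. DESeq2 called Prickle1, against 1.24% of all genes, and limma-voom called 0. The median log2 fold change of the 71 was 0.02. Prickle1, which encodes a protein of planar cell polarity, had 20.9, 22.5 and 22.6 CPM in KO, against 26.3, 29.4 and 28.5 CPM in WT, with no overlap (log2 fold change -0.35 ± 0.08 SE; edgeR adjusted p = 0.195, DESeq2 adjusted p = 0.0351). Nkd1, a feedback inhibitor that binds Dishevelled, had 21.5, 21.3 and 25.3 CPM in KO, against 26.8, 28.2 and 31.7 CPM in WT, again with no overlap (log2 fold change -0.35 ± 0.10 SE; edgeR adjusted p = 0.307). Without KO replicate 3, edgeR called both lower (adjusted p of 0.0393 for Prickle1 and 0.0208 for Nkd1). That fit called 2.26% of all genes, 1.74% higher and 0.521% lower. With another library left out, the adjusted p of Prickle1 and Nkd1 reached 0.664 and 0.731. The ubiquitin ligase gene Rnf43, whose product removes Frizzled proteins from the cell surface, had a mean of 9.22 ± 0.424 CPM in KO and 11.3 ± 0.877 CPM in WT (SD, n = 3 each; log2 fold change -0.30). The glypican gene Gpc4 and the corepressor gene Tle3 were on the other side, at log2 fold changes of 0.22 and 0.41 (edgeR adjusted p of 0.445, 0.5 and 0.457 for the 3 genes).

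A list of 24 genes known as WNT targets in the ovary or in other tissues held 5 of the members (Axin2, Lef1, Tcf7, Lgr5 and Dkk1). It also shared Nr5a2 with the granulosa cell markers, and Nkd1, Notum, Rnf43, Znrf3 and Apcdd1 with the list of other pathway genes. Nkd1 and Rnf43, lower in KO at an unadjusted edgeR p under 0.05, are therefore counted in both lists. Of the 23 that were tested, edgeR called 0, and 11 (47.8%, against 9.16% of all genes) had an unadjusted p under 0.05, 2 higher in KO and 9 lower. The list was chosen with earlier results of these data known, so this share is a description and no test of WNT targets as a set. DESeq2 called Tnfrsf19, against 1.24% of all genes, and limma-voom called 0, and the median log2 fold change was -0.04. Leaving out the members, 18 were tested and 9 (50.0%) had an unadjusted edgeR p under 0.05, 2 higher and 7 lower. Tnfrsf19, a receptor of the tumour necrosis factor family, had 12.9, 13.7 and 11.1 CPM in KO, against 16.5, 19.3 and 21.4 CPM in WT, with no overlap (log2 fold change -0.60 ± 0.12 SE; edgeR adjusted p = 0.143, DESeq2 adjusted p = 0.00477). EdgeR called it lower without KO replicate 3 (adjusted p = 0.0254), in the fit that called 0.521% of all genes lower. The adjusted p of Tnfrsf19 reached 0.649 with another library left out. The transcription factor gene Sox9 had 1.83, 2.00 and 2.20 CPM in KO, against 2.74, 3.25 and 3.03 CPM in WT (log2 fold change -0.58; edgeR adjusted p = 0.312). Cd44, a receptor for hyaluronan, had 21.6, 15.7 and 18.9 CPM in KO, against 9.71, 14.9 and 13.2 CPM in WT (log2 fold change 0.57; edgeR adjusted p = 0.377). Neither overlapped between groups, and they lay on opposite sides.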

How the data were processed

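RNA from granulosa cells was sequenced as read pairs of 150 bases. The authors deposited raw counts, 1 whole number for each gene and library. The submitters' processing notes name Trimmomatic 0.36, STAR 2.5.2b, Subread 1.5.2 with featureCounts, and GRCm38. Annotation release, strand setting and the handling of pairs and of reads that match several places were not given in the sources used here. Symbols came from GENCODE M21 (49056 of 49315 identifiers matched, 53 of 53 members found), and coordinates are those of the count files, counted from 1.

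EdgeR 4.0.16 (R 4.3.3) was run on all genes: filterByExpr (18250 kept), TMM scaling, robust quasi-likelihood test of genotype with no other term, Benjamini-Hochberg adjustment over all genes kept, calls at 0.05. DESeq2 1.42.0, limma 3.58.1 (voom with quality weights), other scalings and filters, the replicate block and leaving out each library were alternatives. The scripts were tested on simulated data. The members, lists and alternatives were chosen with earlier results of these data known. Levels per kilobase divide CPM by the exon length in the count files. Per library, values are given in each role for the 2 members with the highest level per kilobase and the 2 with the smallest p, for each called member and for each tested member whose groups did not overlap. Of the lists of other genes, those with the smallest p are named. Wnt5a was plotted after its values were seen. Same-numbered KO and WT libraries were not labelled as sharing an animal or day.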

Additional observations from a re-analysis of the deposited data

How the results depend on the processing

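The number of all genes called was 40, and it was 199 without a filter, 21 at a mean of at least 1 CPM, 221 in DESeq2, 72 in limma-voom, 15 with the replicate number as a block and 8 to 421 with 1 library left out, highest without KO replicate 3. The number of members called was 1, and it was 3 in DESeq2, 0 with the replicate block and 0 to 2 with 1 library left out. It was 2 without KO replicate 3 and 0 without each of the others. Of the other pathway genes 0 were called, with 1 without a filter, 1 in DESeq2 and 0 to 2 with 1 library left out. Of the target genes 0 were called, with 1 without a filter, 1 in DESeq2 and 0 to 2 with 1 library left out. The cause was not tested. The median of the members moved by less than 0.08 in each alternative run, the spread between libraries.

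Fzd2 kept its log2 fold change under the block (0.50, edgeR adjusted p = 0.118). Deviations of same-numbered libraries from their group means correlated at -0.02, 0.07 and -0.03, and not every library correlated best with its own number, so the numbers were not taken as a pairing.

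Of the 26 members whose values are given in every library, 8 turned direction in at least 1 alternative and none of the 8 was called in any fit. Without KO replicate 1, Wnt6 was at -0.09, Sfrp1 at -0.15, Sfrp2 at 0.08 and Tcf7 at 0.04. Without KO replicate 2, Sfrp1 was at -0.02 and Ctnnb1 at -0.01. With 1 library left out, the ranges were -0.09 to 0.27 for Wnt6, -0.15 to 0.26 for Sfrp1, -0.71 to 0.08 for Sfrp2, -0.25 to 0.12 for Lgr5, -0.15 to 0.13 for Lgr4, -0.04 to 0.03 for Axin1, -0.01 to 0.14 for Ctnnb1 and -0.12 to 0.04 for Tcf7. Without KO replicate 3, Lgr4 was at 0.13, Lgr5 at 0.12 and Axin1 at -0.02. Without WT replicate 1, Wnt6 was at -0.03, Sfrp1 at -0.05 and Tcf7 at 0.00. Lgr4 was at 0.00 without WT replicate 2, and Lgr5 was at 0.02 and Axin1 at -0.04 without WT replicate 3. In limma-voom, Lgr4 was at 0.10, Lgr5 at 0.03 and Axin1 at -0.01, and Axin1 was at -0.02 under upper quartile scaling and at -0.01 without a filter or at a mean of at least 1 CPM. The other 306 values of these 26 members kept their direction and their side of the threshold, and those of Fzd2, Fzd4 and Fzd8 that changed side are given with the genes. Of the other 17 tested members, 11 turned in at least 1 alternative and 0 were called in one. With 1 library left out, Dkk2 ran from -0.37 to 0.81, Wnt10b from -0.52 to 0.14, Wnt11 from -0.22 to 0.25, Wnt7b from -0.07 to 0.32 and Fzd10 from -0.08 to 0.39. Wnt2, Wnt5b, Fzd3, Fzd6, Tcf7l1 and Tcf7l2 turned as well, at main values between -0.04 and 0.10.

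Depth limits 6 tested members with a mean under 1 CPM, Wnt2, Wnt7a, Fzd10, Dkk1, Dkk2 and Rspo3, which rest on at most 69 counts in a library and could not be tested at a mean of at least 1 CPM, and the 10 members that were not tested.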

Other observations

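Some members lie beside each other in the genome, and the neighbours differed widely in level. Wnt6 and Wnt10a lie 6.19 kilobases apart on chromosome 1, on the same strand, and had 26.5 and 1.10 CPM per kilobase over all 6 libraries. On chromosome 15, Wnt10b had 5.53 CPM per kilobase, while Wnt1, 11.7 kilobases away on the other strand, had 0.0174. Wnt9a had 1.81 CPM per kilobase on chromosome 11 and Wnt3a, 16.2 kilobases from it, 0.0217. Wnt9b and Wnt3, 24.3 kilobases apart on the same chromosome, were both near 0 (0.0110 and 0.00454 CPM per kilobase).

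The Frizzled genes share short identical stretches. The longest ran over 47 bases between Fzd2 and Fzd1, over 47 between Fzd7 and Fzd1 and over 38 between Fzd2 and Fzd7, against reads of 150 bases. Fzd1 had a log2 fold change of -0.12 and Fzd7 of 0.14, beside the 0.50 of Fzd2.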
